A study of Homo sapiens with 6 samples.

Results

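The genes described here are 38 genes of glycolysis and of the hypoxia response, taken by gene symbol from a list of glucose transporters, glycolytic enzymes, hypoxia-inducible factors (HIFs), regulators of HIF and known HIF targets. No measured value entered the rule, but the list was chosen with earlier results of these data known. All 38 were found among the 60666 genes listed for each library, and all 38 passed the filter on low counts, which kept 16959 genes for testing. RNA-seq was performed on 3 libraries of DNMT3B KO cells and 3 libraries of HCT116 cells. HCT116 is a human colorectal carcinoma line, and DNMT3B KO is a derivative of it that lacks the de novo DNA methyltransferase DNMT3B. Both were grown in McCoy's 5A medium, and the labels give no other allele and no agent for either. Oxygen level and cell density at harvest, on which these genes are known to depend, are not given in the sources used here. The knockout is 1 derived line, so the deletion and the separate history of the line cannot be told apart. The labels do not say whether the 3 libraries of each line are separate cultures, and if they are not, p-values measure only technical spread.

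Glycolysis converts glucose to pyruvate in the cytosol. Glucose enters through transporters of the SLC2A family, is phosphorylated by hexokinase and split into triose phosphates in the upper part of the pathway, and the lower part yields ATP, NADH and pyruvate. Tumour cells commonly reduce much of that pyruvate to lactate and export it even where oxygen is present. HIF is a pair of proteins, an oxygen-regulated alpha subunit and a constant beta subunit. In oxygen, prolyl hydroxylases of the EGLN family mark the alpha subunit for the VHL ubiquitin ligase, which directs its destruction. When oxygen is short the alpha subunit accumulates and HIF activates genes that carry its binding element, among them most glycolytic enzymes and genes for pH control, vessel growth, mitophagy and collagen modification. HIF protein is controlled mainly by stability, so the RNA levels below do not measure HIF activity.

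Summed estimated counts per library ran between 56277217 and 67624429 in DNMT3B KO cells and between 55436267 and 68274783 in HCT116 cells. DNMT3B itself averaged 2.75 ± 0.18 CPM in DNMT3B KO cells and 36.0 ± 5.1 CPM in HCT116 cells (SD, n = 3 each; log2 fold change -3.71, adjusted p = 2.5e-06), where CPM is a gene's count set to a common library total after scaling between libraries. The 3 DNMT3B KO libraries lay close together in a principal component analysis, whereas HCT116 replicates 2 and 3 lay at opposite ends of the second component, which held 14.3% of the variance, with replicate 1 between them. Of 12 colorectal epithelial markers, 7 reached 1 CPM in each line, and the 12 summed to 2123 to 2311 CPM in DNMT3B KO cells and 4390 to 5258 CPM in HCT116 cells; CDX1, CDH17, LGALS4 and CEACAM5 were near 0. Marker lists of fibroblasts, immune cells, endothelium and neural cells summed to at most 22.7 CPM in any library, a value reached by the immune list, which was made up mostly of CD68. Mitochondrially encoded genes took 3.74% to 5.41% of counts in DNMT3B KO cells and 3.57% to 4.01% in HCT116 cells.

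Transcripts of glycolysis were more often lower than higher in DNMT3B KO cells. Of the 38 genes, 16 fell, 1 rose and 21 did not pass the test, where rose and fell mean an adjusted p under 0.05 in edgeR's quasi-likelihood test with Benjamini-Hochberg adjustment over all tested genes. Among all tested genes 15.1% fell, 12.9% rose and 28.1% changed in either direction. With upper-quartile scaling, which moved the median log2 fold change of all genes to 0.08, 13 of the 38 fell and 1 rose, while over all tested genes 2834 rose and 2090 fell, in place of 2196 that rose and 2565 that fell. In DESeq2 20 of the 38 fell (18.0% of all tested genes) and 1 rose (15.1%). The median log2 fold change, given throughout as DNMT3B KO over HCT116, was -0.36 over the 38 genes and -0.00 over all tested genes. Of 23 genes for uptake, glycolysis, lactate and its control, 12 fell and 1 rose, with a median of -0.37. Of 10 HIF targets, 2 fell and 8 did not pass, with a median of -0.06. Of the 17 enzyme genes from hexokinase to lactate dehydrogenase, 9 fell and 1 rose. All 3 DNMT3B KO libraries lay below all 3 HCT116 libraries for 21 of the 38 genes (22.6% of all tested genes) and above them for 2 (23.3%). In RNA from a bulk culture, fewer cells carrying a transcript and less of it per cell cannot be told apart.

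The glucose transporter gene SLC2A1 and the lactate exporter gene SLC16A3 fell in the knockout. SLC2A1 (GLUT1, chromosome 1, 42925353 to 42958893), the main glucose transporter of proliferating cells, had 106, 108 and 98.7 CPM in DNMT3B KO replicates 1, 2 and 3, against 230.0, 190.3 and 291 CPM in HCT116 replicates 1, 2 and 3. The lines did not overlap, and the transcript was 2.28-fold lower in DNMT3B KO cells (log2 fold change -1.19, standard error 0.15, adjusted p = 0.00086). SLC16A3 (MCT4, chromosome 17), the transporter that exports lactate from glycolytic cells, had 179.6, 194 and 182 CPM in DNMT3B KO cells, against 286, 268 and 340.4 CPM in HCT116 cells. It was 1.61-fold lower, again with no overlap (-0.69, standard error 0.11, adjusted p = 0.0026). SLC2A3 (GLUT3, chromosome 12), a high-affinity glucose transporter, was scarce, with 3.16, 2.82 and 3.52 CPM in DNMT3B KO cells and 5.63, 5.57 and 5.95 CPM in HCT116 cells. Its fall (-0.85, standard error 0.17, adjusted p = 0.0075) was uncertain, since 3 pseudogenes that carry its name held counts equal to 27.9% of its own in DNMT3B KO cells and 21.5% in HCT116 cells, and the sum of gene and pseudogenes did not pass (adjusted p = 0.10). SLC16A1 (MCT1), another abundant lactate transporter, which is not among the 38 and was chosen after its values were seen, overlapped between the lines, with 195, 189 and 211 CPM in DNMT3B KO cells and 198, 172 and 230 CPM in HCT116 cells (-0.01, adjusted p = 0.96). SLC2A1 and SLC16A3 kept their calls in every alternative analysis that was run.

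In upper glycolysis, from hexokinase to triose phosphate isomerase, 5 of 9 genes fell (15.1% of all tested genes) and 1 rose (12.9%). PFKL (chromosome 21), the liver-type subunit of phosphofructokinase, which catalyses the committed step, had 84.4, 76.5 and 76.9 CPM in DNMT3B KO cells, against 157, 162 and 149 CPM in HCT116 cells. The libraries did not overlap, and the transcript was 1.97-fold lower in the knockout (log2 fold change -0.98, standard error 0.09, adjusted p = 0.00013). PFKM (chromosome 12), the muscle-type subunit, also fell, with 149.9, 149 and 151 CPM in DNMT3B KO cells against 194, 205 and 183 CPM in HCT116 cells (-0.37, adjusted p = 0.011). PFKP (chromosome 10), the platelet-type and most abundant subunit here, had 259, 231 and 242 CPM in DNMT3B KO cells and 302, 275 and 355 CPM in HCT116 cells, without overlap but short of the threshold (-0.35, adjusted p = 0.053). All 3 phosphofructokinase genes were thus lower in every knockout library, and PFKL by the widest margin.

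HK1 (chromosome 10), the widely expressed hexokinase, had 76.7, 69.2 and 80.3 CPM in DNMT3B KO cells, against 107, 131 and 99.2 CPM in HCT116 cells (log2 fold change -0.57, standard error 0.12, adjusted p = 0.0094). HK2 (chromosome 2), the hexokinase that many tumours induce, overlapped between the lines, with 73.8, 64.5 and 79.4 CPM in DNMT3B KO cells and 72.4, 71.6 and 107 CPM in HCT116 cells (-0.20, adjusted p = 0.41). GPI (chromosome 19), which converts glucose 6-phosphate to fructose 6-phosphate, had 585, 579 and 600.1 CPM in DNMT3B KO cells against 723, 715 and 829 CPM in HCT116 cells (-0.36, standard error 0.10, adjusted p = 0.026). Of these 3 genes, HK1 and GPI were below HCT116 in every knockout library, and HK2 was not. ALDOA (chromosome 16), the main aldolase, which splits fructose 1,6-bisphosphate, had 907, 897 and 939.6 CPM in DNMT3B KO cells against 1129, 1207 and 1309 CPM in HCT116 cells (-0.41, standard error 0.10, adjusted p = 0.016).

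TPI1 (chromosome 12, 6867119 to 6870948), the isomerase that interconverts the triose phosphates made by aldolase, went the other way from its neighbours in the pathway. It had 1171, 1285 and 1278 CPM in DNMT3B KO cells, against 912, 788 and 1083 CPM in HCT116 cells. Every knockout library was above every HCT116 library, and the transcript was 1.34-fold higher in DNMT3B KO cells (log2 fold change 0.42, standard error 0.13, adjusted p = 0.044). This call was narrow: the adjusted p was 0.054 with another scaling between libraries (RLE) and 0.056 to 0.15 when any 1 of the DNMT3B KO replicates 1, 2 and 3 or of the HCT116 replicates 1 and 2 was left out. Leaving out 1 library also ended other calls in upper glycolysis. HK1 had an adjusted p of 0.051 without DNMT3B KO replicate 2, ALDOA 0.058 to 0.079 without DNMT3B KO replicate 1, 2 or 3, and when 1 of these or HCT116 replicate 1 was left out PFKM had 0.051 to 0.057 and GPI 0.067 to 0.11. PFKP passed without HCT116 replicate 2 (adjusted p = 0.0097) and in DESeq2 (0.021).

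In lower glycolysis, from glyceraldehyde 3-phosphate to pyruvate, 4 of 6 genes fell (15.1% of all tested genes) and the others did not pass. GAPDH (chromosome 12, 6534512 to 6538374), which makes NADH from glyceraldehyde 3-phosphate and is widely used as a reference gene, had 3138, 3441 and 3447 CPM in DNMT3B KO cells against 4202, 4100.0 and 4938 CPM in HCT116 cells. It was 1.32-fold lower in the knockout with no overlap (log2 fold change -0.40, standard error 0.12, adjusted p = 0.036). ENO1 (chromosome 1), the main enolase, had 2116, 2224 and 2248 CPM in DNMT3B KO cells against 2754, 2953 and 3210.0 CPM in HCT116 cells (-0.44, standard error 0.10, adjusted p = 0.017). PKM (chromosome 15), the pyruvate kinase that makes pyruvate and ATP, had 1444, 1642 and 1579 CPM in DNMT3B KO cells against 2151, 1907 and 2419 CPM in HCT116 cells (-0.47, standard error 0.12, adjusted p = 0.021). Gene-level counts do not separate its PKM1 and PKM2 isoforms.

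PGAM1 (chromosome 10), the phosphoglycerate mutase, had 445, 494 and 500.1 CPM in DNMT3B KO cells against 652, 545 and 824 CPM in HCT116 cells (log2 fold change -0.49, standard error 0.15, adjusted p = 0.045). PGK1 (X chromosome), the phosphoglycerate kinase that makes the first ATP of the pathway, did not pass although its libraries did not overlap, with 513, 571 and 572 CPM in DNMT3B KO cells and 585, 610.1 and 624 CPM in HCT116 cells (-0.14, adjusted p = 0.31). Thus 5 of the 6 lower glycolytic genes were below HCT116 in every knockout library (22.6% of all tested genes). PGK1 was lower by 1.10-fold, and GAPDH, ENO1, PKM and PGAM1 by between 1.32-fold and 1.41-fold. The exception was ENO2 (chromosome 12), the enolase best known from neurons, with 102, 88.4 and 86.0 CPM in DNMT3B KO cells and 67.8, 92.8 and 48.9 CPM in HCT116 cells. It did not pass (0.40, adjusted p = 0.20) but did so without HCT116 replicate 2 (0.65, adjusted p = 0.0081). The calls in lower glycolysis also ended without single libraries: the adjusted p was 0.059 to 0.083 for ENO1 without DNMT3B KO replicate 1, 2 or 3 and 0.063 to 0.099 for PKM when 1 of these or HCT116 replicate 1 was left out. When 1 of these 4 or HCT116 replicate 3 was left out, it was 0.055 to 0.14 for GAPDH and 0.067 to 0.16 for PGAM1, both of which also missed the threshold with upper-quartile scaling (0.070 for GAPDH and 0.062 for PGAM1).

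**Figure D1:**
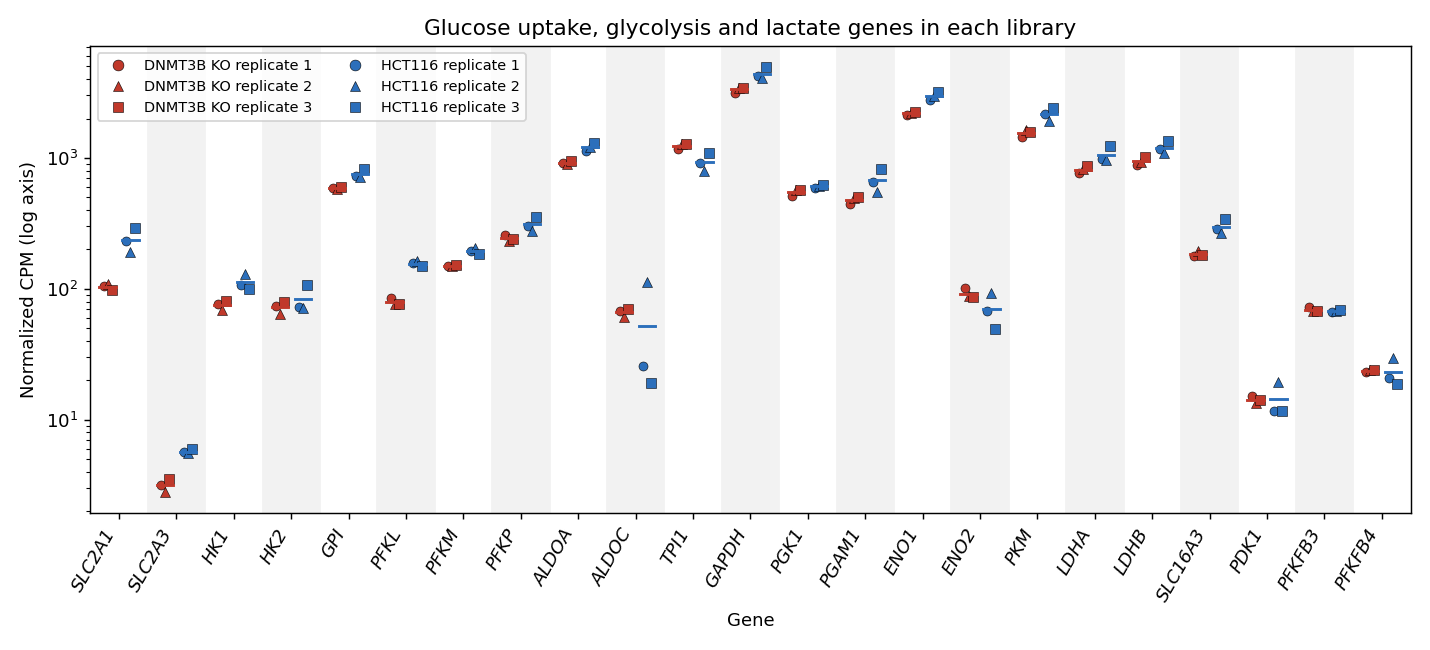
Normalized CPM (vertical, log axis) of the 23 genes of glucose uptake, glycolysis, lactate and pyruvate handling and fructose bisphosphate control (horizontal, pathway order), with DNMT3B KO libraries in red left of HCT116 libraries in blue; each point is 1 library, its shape gives the replicate and the bar is the mean of 3. The red points lie below the blue ones for 16 genes (22.6% of all tested genes) and above them for TPI1 alone (23.3%). For ALDOC, HCT116 replicate 2 lies at 112 CPM, apart from the 25.9 and 19.0 CPM of HCT116 replicates 1 and 3.

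Both lactate dehydrogenase genes were lower in every knockout library and neither passed the test. LDHA (chromosome 11), whose subunit favours the conversion of pyruvate to lactate, had 761, 819 and 867 CPM in DNMT3B KO cells and 986, 961 and 1235 CPM in HCT116 cells (log2 fold change -0.38, standard error 0.12, adjusted p = 0.054). LDHB (chromosome 12), whose subunit favours the reverse reaction, had 886, 928 and 1025 CPM in DNMT3B KO cells and 1163, 1090.0 and 1347 CPM in HCT116 cells (-0.34, standard error 0.12, adjusted p = 0.061). Without HCT116 replicate 2 both passed (adjusted p = 0.017 for LDHA and 0.017 for LDHB), as they did in DESeq2 (0.017 for LDHA and 0.019 for LDHB). The log2 ratio of LDHB to LDHA within a library was 0.21 ± 0.03 in DNMT3B KO cells and 0.18 ± 0.06 in HCT116 cells (SD, n = 3 each, difference 0.03, exact two-sided permutation p = 0.50). The difference in the balance of the 2 subunit genes was about as large as the SD of the DNMT3B KO libraries and smaller than that of the HCT116 libraries.

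Of the 38 genes, 3 regulate 2 control points of the pathway, and none of the 3 was called. Of other such genes outside the 38, TIGAR, PDP1 and PDPR fell, as given below. PFKFB1, PFKFB2, PDK2, PDK3, PDK4 and PDP2 did not pass. PFKFB3 (chromosome 10) and PFKFB4 (chromosome 3) make fructose 2,6-bisphosphate, the activator of phosphofructokinase. PFKFB3 had 72.8, 67.5 and 67.2 CPM in DNMT3B KO cells and 66.5, 67.9 and 68.4 CPM in HCT116 cells (log2 fold change 0.03, standard error 0.08, adjusted p = 0.79). PFKFB4 had 23.1, 23.8 and 24.1 CPM in DNMT3B KO cells and 20.8, 29.7 and 18.8 CPM in HCT116 cells (0.03, standard error 0.17, adjusted p = 0.90). PDK1 (chromosome 2), the kinase that shuts off pyruvate dehydrogenase, had 15.2, 13.3 and 14.3 CPM in DNMT3B KO cells and 11.8, 19.4 and 11.8 CPM in HCT116 cells (-0.00, standard error 0.21, adjusted p = 0.99). For PFKFB4 and PDK1 the HCT116 libraries spread on both sides of the knockout, with replicate 2 highest.

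Per kilobase of transcript, which allows levels to be compared between genes, the order of the enzymes was led by GAPDH (2601 CPM per kb in DNMT3B KO cells and 3435 in HCT116 cells) and ENO1 (1233 in DNMT3B KO cells and 1669 in HCT116 cells). TPI1 ranked next in DNMT3B KO cells at 921 CPM per kb and stood at 687 in HCT116 cells. PKM had 675 CPM per kb in DNMT3B KO cells and 937 in HCT116 cells. LDHB had 726 in DNMT3B KO cells and 921 in HCT116 cells, and ALDOA 558 in DNMT3B KO cells and 741 in HCT116 cells. In mean level PKM, LDHB and ALDOA thus ranked above TPI1 in HCT116 cells and below it in DNMT3B KO cells. In HCT116 replicate 3, however, ALDOA lay just below TPI1 (798 and 801 CPM per kb). Summed over the 17 enzyme genes from hexokinase to lactate dehydrogenase, the level was 12780, 13620 and 13840 CPM in DNMT3B KO replicates 1, 2 and 3, against 16180, 15930 and 18780 CPM in HCT116 replicates 1, 2 and 3, with no overlap. Many of these enzymes are abundant transcripts, and abundant transcripts as a class leaned the same way. Of 246 other tested genes with a mean of at least 500 CPM, 26.0% were called, 24.4% as lower and 1.63% as higher in the knockout, and their median log2 fold change was -0.19, while of the 10 genes described here at that level 6 fell and 1 rose, with a median of -0.39. The part of this lean in the fall of the enzymes was not tested.

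Where a step has more than one gene, ratios within a library show whether the isoenzymes shifted against each other independently of scaling between libraries. Of 13 pairs, 4 had ratios that did not overlap between the lines. With 3 libraries against 3, the smallest exact two-sided permutation p is 0.1, which adjusts to 0.33 over 13 pairs, so no pair could pass. The log2 ratio of PFKM to PFKL was 0.83, 0.96 and 0.97 in DNMT3B KO cells against 0.31, 0.34 and 0.30 in HCT116 cells, and that of PFKP to PFKL was 1.61, 1.59 and 1.66 in DNMT3B KO cells against 0.94, 0.77 and 1.26 in HCT116 cells (exact permutation p = 0.1 each). The phosphofructokinase transcripts of the knockout therefore held a smaller share of the liver-type subunit. The log2 ratio of ENO2 to ENO1 was -4.38, -4.65 and -4.71 in DNMT3B KO cells against -5.34, -4.99 and -6.04 in HCT116 cells (exact permutation p = 0.1), a difference of 0.88. The fourth pair, CA12 to CA9 (difference -2.64), rests on the few counts of CA9. ALDOC (chromosome 17), the aldolase best known from brain, had 67.2, 60.8 and 70.5 CPM in DNMT3B KO cells and 25.9, 112 and 19.0 CPM in HCT116 cells, and the log2 ratio of ALDOC to ALDOA overlapped (-3.79 ± 0.08 in DNMT3B KO cells and -4.99 ± 1.40 in HCT116 cells, SD, n = 3 each; exact permutation p = 0.4). Without HCT116 replicate 2, ALDOC was called as higher in the knockout, with a log2 fold change of 1.55 (adjusted p = 6.7e-05) in place of 0.34 (adjusted p = 0.71).

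Of the genes for the oxygen-regulated HIF subunits, HIF1A and EPAS1 fell, and HIF3A, which is not among the 38 and was scarce, rose. HIF1A (chromosome 14, 61695513 to 61748259), the broadly expressed alpha subunit, had 117, 130.3 and 143 CPM in DNMT3B KO cells against 226, 216 and 244 CPM in HCT116 cells. It was 1.76-fold lower in the knockout with no overlap (log2 fold change -0.82, standard error 0.10, adjusted p = 0.00083). EPAS1 (HIF-2 alpha, chromosome 2, 46293667 to 46386697) had 26.6, 23.4 and 34.1 CPM in DNMT3B KO cells against 56.8, 78.3 and 51.2 CPM in HCT116 cells. This was 2.21-fold lower, also with no overlap (-1.15, standard error 0.19, adjusted p = 0.0034), and the log2 ratio of EPAS1 to HIF1A overlapped between the lines (difference -0.32, exact permutation p = 0.4). The calls of HIF1A and EPAS1 held in every alternative analysis that was run. HIF3A, the third alpha subunit, chosen here after its values were seen, had 1.03, 0.520 and 0.655 CPM in DNMT3B KO cells against 0.136, 0.377 and 0.198 CPM in HCT116 cells (1.62, standard error 0.46, adjusted p = 0.034).

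The genes that direct the destruction of HIF alpha were not called. VHL (chromosome 3), the substrate-binding part of the ubiquitin ligase, had 77.5, 74.8 and 66.1 CPM in DNMT3B KO cells and 64.8, 66.5 and 48.4 CPM in HCT116 cells (log2 fold change 0.28, adjusted p = 0.16). EGLN1 (chromosome 1), the main oxygen-sensing prolyl hydroxylase, had 49.8, 45.8 and 54.1 CPM in DNMT3B KO cells and 54.0, 47.9 and 59.7 CPM in HCT116 cells (-0.11, adjusted p = 0.50). EGLN3 (chromosome 14), a prolyl hydroxylase that HIF itself induces, was scarce, with 1.89, 3.37 and 1.84 CPM in DNMT3B KO cells and 3.67, 8.02 and 3.63 CPM in HCT116 cells. Its libraries did not overlap, but the difference missed the threshold in edgeR (-1.11, standard error 0.39, adjusted p = 0.066). It passed in DESeq2 (0.018), without the filter on low counts (0.023) and without HCT116 replicate 3 (0.028). EGLN3 overlaps the more abundant gene SPTSSA on the same strand (1396 counts of EGLN3 and 12433 of SPTSSA over all libraries), and reads in their shared part cannot be told apart.

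Of the 10 HIF targets, ADM and NDRG1 fell. ADM (adrenomedullin, a vasodilator peptide) moved farther than any other of the 38 genes. On chromosome 11, 10305073 to 10307397, it had 3.37, 5.03 and 3.23 CPM in DNMT3B KO cells against 23.6, 27.7 and 24.6 CPM in HCT116 cells, which was 6.53-fold lower in the knockout (log2 fold change -2.71, standard error 0.19, adjusted p = 5.0e-05). NDRG1 (chromosome 8), a stress-induced differentiation gene, had 107, 89.5 and 105 CPM in DNMT3B KO cells against 159, 262 and 128 CPM in HCT116 cells. It fell (-0.87, standard error 0.24, adjusted p = 0.031), and the fall missed the threshold with upper-quartile scaling (0.053) and when HCT116 replicate 1 or any library of the knockout was left out (0.054 to 0.12). ADM and NDRG1 were the 2 of 10 targets whose knockout libraries all lay below HCT116 (22.6% of all tested genes).

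Of the 8 targets without a call, 4 had log2 fold changes above 0 and 4 below. VEGFA (chromosome 6), the main vessel growth factor, had 55.1, 54.6 and 43.2 CPM in DNMT3B KO cells and 47.8, 50.7 and 41.9 CPM in HCT116 cells (0.12, adjusted p = 0.50). CA12 (chromosome 15), a surface carbonic anhydrase that controls pH, had 5.88, 7.51 and 6.16 CPM in DNMT3B KO cells and 5.13, 6.14 and 4.90 CPM in HCT116 cells (0.27, adjusted p = 0.29). P4HA2 (chromosome 5), a collagen prolyl hydroxylase subunit, lay between 53.2 and 58.0 CPM in DNMT3B KO cells and between 51.2 and 60.1 CPM in HCT116 cells. For each of these 3 genes the lines overlapped.

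BNIP3, BNIP3L, P4HA1 and ANKRD37 varied more among the HCT116 libraries than between the lines. BNIP3 (chromosome 10), a mitophagy receptor, had 33.6, 32.7 and 32.4 CPM in DNMT3B KO cells and 28.8, 45.9 and 29.5 CPM in HCT116 cells (log2 fold change -0.08, adjusted p = 0.78). Its relative BNIP3L (chromosome 8) had 44.3, 53.5 and 50.4 CPM in DNMT3B KO cells and 44.3, 72.2 and 35.4 CPM in HCT116 cells (-0.04, adjusted p = 0.93). P4HA1 (chromosome 10), the partner of P4HA2 in collagen modification, had 48.5, 53.2 and 53.6 CPM in DNMT3B KO cells and 45.4, 85.3 and 47.2 CPM in HCT116 cells (-0.20, adjusted p = 0.57). In each of these the value of HCT116 replicate 2 was the highest of all 6 libraries, and HCT116 replicates 1 and 3 lay below the knockout libraries or level with the lowest of them. ANKRD37 (chromosome 4), a small ankyrin repeat gene induced by HIF, showed the same order at 1.26, 1.32 and 1.45 CPM in DNMT3B KO cells and 1.45, 2.81 and 1.19 CPM in HCT116 cells, except that HCT116 replicate 1 equalled the highest knockout library.

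CA9 (chromosome 9, 35673928 to 35681159), a carbonic anhydrase often used as a marker of hypoxia, was near the limit of detection, with 29, 37 and 35 counts in DNMT3B KO replicates 1, 2 and 3, against 5, 25 and 0 counts in HCT116 replicates 1, 2 and 3. A count of 0 in HCT116 replicate 3 allows up to 0.0595 CPM, that is, 3 counts, which covers counting error only. The difference did not pass (log2 fold change 1.68, standard error 0.86, adjusted p = 0.19). It was called without HCT116 replicate 2, at 3.57 (adjusted p = 0.0070). ARHGEF39, on the other strand across CA9, had 11295 counts over all libraries and CA9 had 131, and whether reads of ARHGEF39 reached the CA9 count was not tested.

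**Figure D2:**
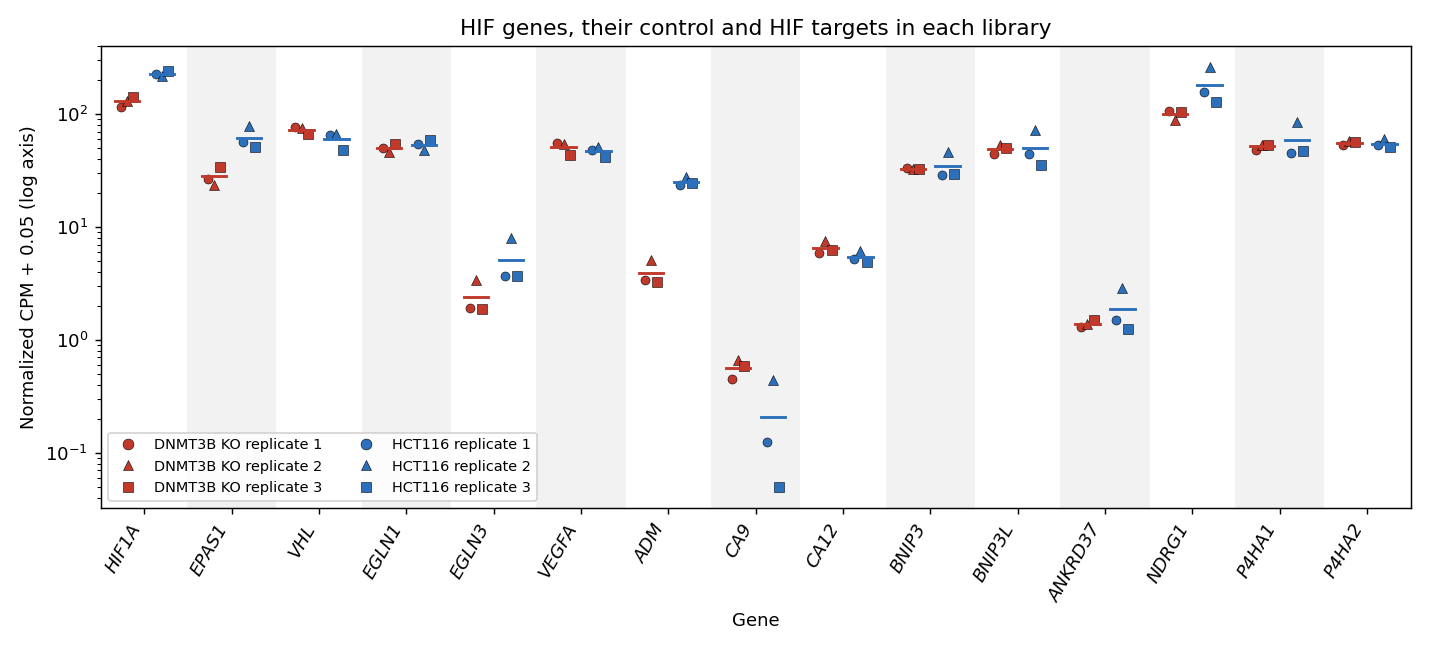
Normalized CPM plus 0.05 (vertical, log axis) of the HIF genes, their regulators and the HIF targets (horizontal), with DNMT3B KO libraries in red left of HCT116 libraries in blue; each point is 1 library, its shape gives the replicate and the bar is the mean of 3. HIF1A, EPAS1, EGLN3, ADM and NDRG1 have all red points below the blue ones, and HCT116 replicate 2 (blue triangle) is the highest HCT116 library in 10 of the 10 targets from VEGFA to P4HA2.

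HIF binds a short core in DNA, and the letters ACGTG and GCGTG were searched on both strands in the 300 bases around each start site (250 before and 50 after) as given by RefSeq on GRCh38.p14, which held 33 of the 38 genes. A palindromic CACGTG is counted once on each strand. At least 1 core was found in 24 of the 33 (72.7%), against 48.5% of all 35114 promoters and 59.8% of those of tested genes. ACGTG was found in 13 (39.4%), against 21.4% of all promoters and 25.0% of those of tested genes, and GCGTG in 16 (48.5%), against 36.5% of all promoters and 47.7% of those of tested genes. Both cores contain the letters CG, whose median count was 29 in the 33 promoters, 25 in those of tested genes and 14 in all promoters. The part of this difference in the shares was not tested. The 250 bases before the start are printed for 5 genes whose values are at the extremes of the set. ADM fell most, and CA9 and ALDOC differed most between HCT116 libraries. BNIP3 and LDHA held the most cores in the 300 bases (6 each) and, like CA9 and ALDOC, had no call. Capitals mark the cores, reading 5′ to 3′ on the strand of the gene, so that a core on the opposite strand reads CACGT or CACGC.
ADM (chr11:10304823-10305072, plus strand): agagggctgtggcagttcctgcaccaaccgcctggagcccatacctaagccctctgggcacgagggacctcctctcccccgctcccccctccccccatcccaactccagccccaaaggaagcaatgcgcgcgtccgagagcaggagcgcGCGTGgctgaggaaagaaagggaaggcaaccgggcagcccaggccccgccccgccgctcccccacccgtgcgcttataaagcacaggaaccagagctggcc
CA9 (chr9:35673678-35673927, plus strand): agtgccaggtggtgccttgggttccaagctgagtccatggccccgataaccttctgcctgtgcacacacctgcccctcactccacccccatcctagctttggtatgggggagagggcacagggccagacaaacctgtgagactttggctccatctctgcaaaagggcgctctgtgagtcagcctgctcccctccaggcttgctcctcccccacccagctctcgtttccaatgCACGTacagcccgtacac
ALDOC (chr17:28576896-28577145, minus strand): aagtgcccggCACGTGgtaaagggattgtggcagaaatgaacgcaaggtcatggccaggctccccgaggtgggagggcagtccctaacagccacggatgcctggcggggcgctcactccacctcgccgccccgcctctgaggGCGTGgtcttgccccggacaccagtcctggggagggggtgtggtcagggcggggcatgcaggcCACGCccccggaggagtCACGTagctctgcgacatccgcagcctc
BNIP3 (chr10:131981924-131982173, minus strand): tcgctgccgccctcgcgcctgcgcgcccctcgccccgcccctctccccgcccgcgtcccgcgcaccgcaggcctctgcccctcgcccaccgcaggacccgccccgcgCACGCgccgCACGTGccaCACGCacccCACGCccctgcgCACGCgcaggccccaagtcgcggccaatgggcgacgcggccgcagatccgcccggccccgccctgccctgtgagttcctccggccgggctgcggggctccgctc
LDHA (chr11:18394313-18394562, plus strand): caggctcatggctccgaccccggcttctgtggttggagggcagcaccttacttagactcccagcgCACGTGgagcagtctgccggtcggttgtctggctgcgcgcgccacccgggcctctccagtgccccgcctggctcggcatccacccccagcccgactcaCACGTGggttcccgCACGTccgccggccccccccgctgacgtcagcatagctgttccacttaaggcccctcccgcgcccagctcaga
ADM held 1 core, 101 bases before its start, and CA9 held 1, 18 bases before its start. In the 250 bases printed, ALDOC held 5, BNIP3 held 6 and LDHA held 5, with each CACGTG counted once on each strand. Of the 5 genes printed, only ADM was called. A match is a run of letters and not a measured binding site.

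HCT116 replicate 2 stood apart in the 10 genes grouped here as HIF targets. This group leaves out the glycolytic enzymes, most of which HIF is also known to activate. HCT116 replicate 2 was the highest HCT116 library for 10 of 10 targets and for 20 of the 38 genes. Over all tested genes it was highest in 44.7%. It exceeded all other 5 libraries in 7 of 10 targets (26.9% of all tested genes), and reached at least 1.5 times the mean of HCT116 replicates 1 and 3 in 6 of 10 (17.2% of all tested genes). The median of that ratio was 1.69 over the targets, 0.92 over the 17 enzymes and 1.03 over all tested genes. The ratio was 10.4 for CA9, 5.00 for ALDOC, 2.20 for EGLN3, 2.13 for ANKRD37, 1.84 for P4HA1, 1.83 for NDRG1, 1.81 for BNIP3L, 1.65 for PDK1, 1.59 for ENO2 and 1.57 for BNIP3. These 10 genes are all known from other cells to respond to HIF or hypoxia, but they come from a list of glycolysis and hypoxia genes. This shared trait was therefore fixed by the list and tells nothing about replicate 2. SLC2A1, also a classical HIF target, ran the other way at 0.73, as did PGAM1 at 0.74 and TPI1 at 0.79. HK2 (0.80), PKM (0.83), SLC16A3 (0.85), LDHA (0.87) and GAPDH (0.90) were among the others below 1.

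Enzymes as a group were instead highest in HCT116 replicate 3, in 12 of 17 genes (70.6%), against 37.1% of all tested genes and 53.7% of the 246 other abundant genes. HCT116 replicate 1 was the highest HCT116 library for 0 of the 38 genes (18.1% of all tested genes). The summed level of the 10 targets was 352.7, 356 and 352.0 CPM in DNMT3B KO cells, against 409, 614 and 363 CPM in HCT116 cells, in which NDRG1 weighs most. The standard deviation within a line had a median of 9.50% of the mean in DNMT3B KO cells and 32.9% in HCT116 cells over the targets, and 8.51% in DNMT3B KO cells and 16.0% in HCT116 cells over all tested genes. With HCT116 replicate 2 left out, 19 of the 38 genes fell (17.6% of all genes then tested) and 3 rose (16.5%). Of the 17 genes called with 6 libraries, 16 were also called without it and TPI1 was not, while PFKP, LDHA and LDHB were added as lower and ALDOC, ENO2 and CA9 as higher in the knockout.

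**Figure D3:**
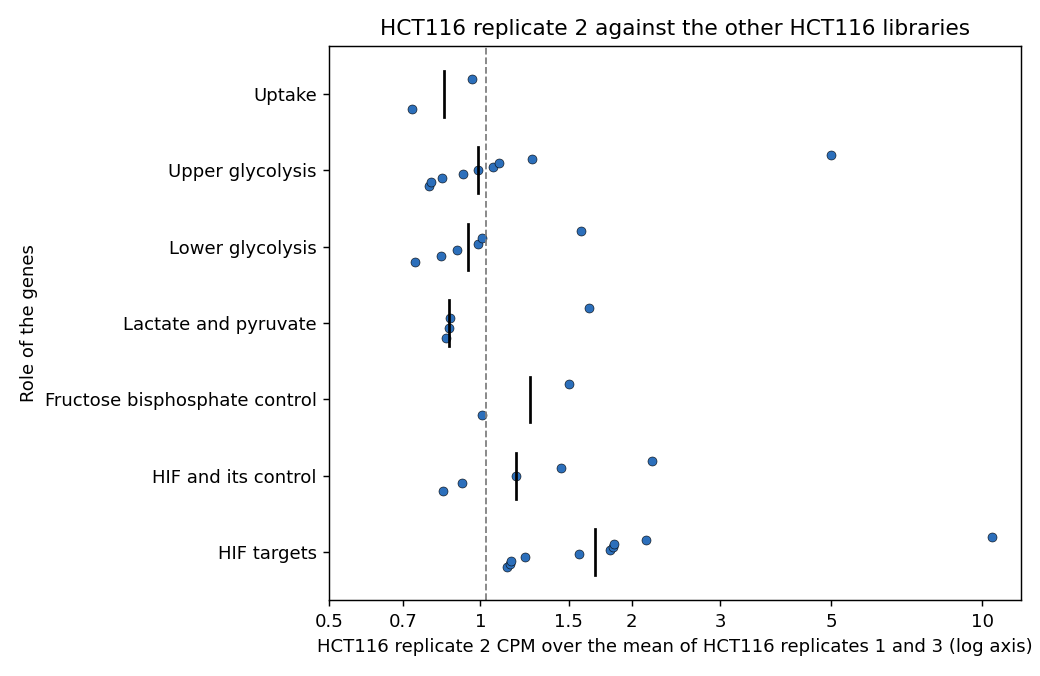
CPM of HCT116 replicate 2 over the mean of HCT116 replicates 1 and 3 (horizontal, log axis) for each of the 38 genes, grouped by role (vertical); the short black bars are the medians of each role and the dashed line is the median of all tested genes, 1.03. The 10 HIF targets all lie above 1, with a median of 1.69, while most genes of glycolysis lie near or below 1, with ALDOC at 5.00, PDK1 at 1.65 and ENO2 at 1.59 above it.

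Beyond the 38 genes, 145 other genes of these pathways were listed, of which 123 were tested: 13 rose, 22 fell and 88 did not pass (28.5% called, against 28.1% of all tested genes), with a median log2 fold change of -0.06. Among 17 other glycolytic isoenzymes and side enzymes, 3 rose and 2 fell. HKDC1, a hexokinase relative, fell (-1.69, adjusted p = 0.022), as did TIGAR, which lowers fructose 2,6-bisphosphate (-0.62, adjusted p = 0.010), and PGM2, a phosphopentomutase, rose (0.35, adjusted p = 0.019). Of 14 other glucose and lactate transporters, which had a median log2 fold change of 0.28, 2 rose and 1 fell, namely SLC2A6 (0.70, adjusted p = 0.013) and SLC2A11 (0.53, adjusted p = 0.039) upwards and the monocarboxylate transporter SLC16A7 downwards (-0.60, adjusted p = 0.025). Each of these 6 calls ended without at least 1 single library (adjusted p from 0.0504 to 0.14 without DNMT3B KO replicate 1, 2 or 3 or HCT116 replicate 1).

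Among genes for the fates of pyruvate and of glucose 6-phosphate, the share called in either direction was near the 28.1% of all tested genes, of which 15.1% fell and 12.9% rose. Of 16 genes of pyruvate dehydrogenase and pyruvate fate, 5 fell and the others did not pass, among the 5 PDP1, the phosphatase that reactivates pyruvate dehydrogenase (-0.67, adjusted p = 0.0021), its regulatory partner PDPR (-0.69, adjusted p = 0.00081) and the mitochondrial malic enzyme ME2 (-0.70, adjusted p = 0.0020). Their median log2 fold change was -0.15. Of 12 genes of the pentose phosphate pathway, 3 fell and 1 rose, with a median of -0.26. TKT, the transketolase that links this pathway back to glycolysis, had 576, 528 and 555 CPM in DNMT3B KO cells against 871, 996 and 813 CPM in HCT116 cells (-0.69, adjusted p = 0.0023). SHPK, a sedoheptulose kinase, fell (-1.19, adjusted p = 0.0062) and RBKS, the ribokinase, rose (1.37, adjusted p = 0.0018).

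Of 24 other genes that control HIF, 2 rose, 1 fell and 21 did not pass (12.5% called, against 28.1% of all tested genes). ARNT2, a paralog of the HIF beta subunit ARNT, had 25.5, 25.7 and 26.1 CPM in DNMT3B KO cells against 5.68, 7.02 and 5.40 CPM in HCT116 cells (log2 fold change 2.09, standard error 0.13, adjusted p = 2.7e-05). FHL2, a LIM domain cofactor, had 29.5, 33.0 and 29.0 CPM in DNMT3B KO cells against 80.8, 81.5 and 81.7 CPM in HCT116 cells (-1.42, standard error 0.09, adjusted p = 2.2e-05). Neither pair of groups overlapped. Of 42 tested genes that hypoxia is known to induce, 5 rose and 10 fell (35.7% called, against 28.1% of all tested genes), with a median of -0.23. KIAA1549L fell (-4.48, adjusted p = 0.00016), with 3, 5 and 5 counts in DNMT3B KO cells against 107, 118 and 56 counts in HCT116 cells. The size of its fold change thus rests on few counts in the knockout. GYS1, the muscle glycogen synthase, fell (-0.49, adjusted p = 0.0034). In this list too HCT116 replicate 2 was often the highest HCT116 library, in 30 of 42 genes, with 12 at 1.5 times the mean of replicates 1 and 3 or more, and a median ratio of 1.21.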

How the data were processed

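RNA was extracted from DNMT3B KO and HCT116 cells and made into stranded mRNA libraries, 3 per line. Reads were aligned by the authors with STAR to hg38 and quantified with Salmon in the transcripts of Ensembl 103 (GENCODE 37). The deposited values are estimated counts, 1 table for each library, which the authors scaled to account for gene length. Gene-level counts do not separate isoforms, and reads of near-identical copies or of overlapping genes on 1 strand can be shared between genes; 16 of the 38 genes have pseudogenes named after them, which except for SLC2A3 held at most 0.502% of the count of the gene. Whether quantification used the strand is not given in the sources used here; without it, reads of genes on the opposite strand that overlap CA9, ANKRD37, PFKM and SLC16A3 (ARHGEF39, UFSP2, SENP1 and CSNK1D) cannot be told apart from theirs.

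Estimated counts were rounded, filtered with filterByExpr, scaled by TMM and compared between genotypes, with no other factor, by edgeR 4.0.16 (quasi-likelihood F test, R 4.3.3). Benjamini-Hochberg adjustment ran over the 16959 tested genes, with calls made under 0.05. Standard errors of log2 fold changes were derived from the fold change and its F statistic. Log2 ratios within a library used 0.5 added to each count and an exact permutation test in scipy 1.17.1. The fit recovered known changes in simulated data, but no recovery rate is given here. It therefore says nothing about fold changes as small as those of most called enzymes. Recovery where HCT116 libraries spread more widely than DNMT3B KO libraries, as here, is not given either. Positions are those of GENCODE 44 on GRCh38, in which 60437 of 60666 gene IDs were found, and lengths are those of its MANE transcripts. Alternatives were RLE and upper-quartile scaling, scaling without the 38 genes, DESeq2 1.42.0, no filter, a replicate block, an adjusted p under 0.01, sums with pseudogenes and each library left out.

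The 38 genes, their roles and the pathway and marker lists were chosen with earlier results of these data known. All 38 are named; per-library values are given for called genes and for described isoenzyme pairs. Of each pathway list, up to 3 called genes with the smallest adjusted p and a mean of at least 1 CPM in a line are named. One gene that this rule names is not reported here. Protein sequences were not used here.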

Additional observations from a re-analysis of the deposited data

How the results depend on the processing

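Of 472 values of the 38 genes under the alternatives, 18 changed sign, and 0 of these belonged to called genes. SLC2A1, PFKL, SLC16A3, HIF1A, EPAS1 and ADM kept their call in each alternative run, 11 called genes lost it in at least 1, and 7 others gained one. The number that fell, 16, was 8 at an adjusted p under 0.01, 7 to 19 with 1 library left out, and between 13 and 20 in the remaining alternatives. The number that rose, 1, was 0 with RLE scaling, 0 at an adjusted p under 0.01 and 0 to 3 with 1 library left out. Of the other pathway genes, 13 rose, with 5 at an adjusted p under 0.01 and 5 to 17 with 1 library left out, and 22 fell, with 34 in DESeq2, 11 at an adjusted p under 0.01 and 12 to 31 with 1 library left out. Over all genes DESeq2 called 5618, edgeR 4761, and edgeR without any 1 library 3049 to 5924.

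Genes whose log2 fold change turned sign in an alternative had no call in the fit of all libraries, where they lay between -0.44 (ANKRD37) and 0.34 (ALDOC). PDK1 was 0.0712 and BNIP3L 0.0375 with upper-quartile scaling. With 1 library left out the ranges were -0.31 to 0.0156 for HK2, -0.0509 to 1.55 for ALDOC, -0.13 to 0.27 for PDK1, -0.0050 to 0.0533 for PFKFB3, -0.0868 to 0.25 for PFKFB4, -0.20 to 0.16 for BNIP3, -0.23 to 0.30 for BNIP3L, -0.65 to 0.0162 for ANKRD37, -0.36 to 0.15 for P4HA1 and -0.0207 to 0.0820 for P4HA2. Differences in log2 ratio ran between -0.11 and 0.222 for PFKFB4 to PFKFB3, -0.055 and 0.164 for BNIP3L to BNIP3 and -0.067 and 0.305 for P4HA2 to P4HA1. The causes were not tested.

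Libraries of the lines share replicate numbers, but the labels do not say that a number marks a shared batch. Deviations from the line means correlated at 0.14, -0.03 and 0.20 for numbers 1, 2 and 3, and DNMT3B KO replicate 1 correlated best with HCT116 replicate 2 (0.16), so the numbers were not taken as pairs. With the replicate block, 18 of the 38 genes fell and 1 rose, since LDHA (adjusted p = 0.039), LDHB (0.041) and EGLN3 (0.013) gained a call and NDRG1 (0.062) lost it, 22 other pathway genes fell and 9 rose (SLC2A11 lost its call, 0.059), and 4214 genes were called in all; PDK1 was 0.0375 and BNIP3L 0.0250. DNMT3B KO and HCT116 have 3 libraries each. Every fit, with 3 or with 2 libraries in a line, assumes that both lines vary alike, while the HCT116 libraries spread more widely.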
